A study of Rattus norvegicus with 4 samples.

Results

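The transcripts of 8 genes of regulated cell death were followed across the cell types of the rat hippocampus: Ripk1, Ripk3 and Mlkl of the necroptosis pathway, Pmaip1, Bcl2 and Bcl2l1 of the BCL-2 family, the death receptor gene Fas, and the p53 target Cdkn1a. They were taken by symbol from the 32623 genes of the deposited single-cell matrix. Each symbol matched 1 gene, and all 8 passed the filter on low counts used for comparisons between cell types. Over all barcodes they had between 393 UMIs (unique molecular identifiers, which count captured RNA molecules) for Mlkl and 24768 UMIs for Pmaip1.

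The tissue came from wild-type male adult Sprague Dawley rats of 10 to 12 months. The 4 titled samples are described as a unilateral middle cerebral artery occlusion (MCAO, an experimental stroke made with a filament passed into the artery), chronic stress (the titles DEPR and MD, which the labels do not tell apart) and a negative control (NC), with 1 library each. The series' design text differs from the titles: it gives 20 rats in 2 groups of 10, all with the occlusion and 1 group with later chronic stress, and hippocampi of 5 rats per group used for sequencing. The labels do not say when after the occlusion or the stress the tissue was taken, or whether several rats were pooled in a library. Hippocampi were dissociated with enzymes, red cells were lysed, and the cells entered 10x Genomics droplets for 3' sequencing.

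The deposited barcodes end in 1 of 4 suffixes, called barcode sets 1 to 4 here. Nothing in the labels or files ties a set to NC, MCAO, DEPR or MD, so no comparison between treatments was made. Each set's value is given as it stands, and the sets are not replicates of a condition. Cells of 1 set share 1 library, so no p-value was computed, and intervals cover counting error only. All cell type comparisons were made inside each set and then set side by side over the 4 sets.

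Necroptosis is a lytic form of cell death. The kinase Ripk1, engaged by death receptors such as the tumour necrosis factor receptor, can bind and activate the kinase Ripk3, which phosphorylates Mlkl, and Mlkl then permeabilises the plasma membrane. Apoptosis by the mitochondrial route is set by the BCL-2 family: Bcl2 and Bcl2l1 (BCL-XL) hold back the pore formers Bax and Bak1, and Pmaip1 (NOXA) is a BH3-only protein that neutralises guardians of the family. Fas starts apoptosis from outside the cell when its ligand binds, and Cdkn1a (p21) inhibits cyclin-dependent kinases and halts the cell cycle. Pmaip1, Fas and Cdkn1a are known targets of p53, and Cdkn1a and Pmaip1 are also known to be induced by other stress signals.

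Of the 8 genes, a p53 response element was found before the start of 2, Pmaip1 and Cdkn1a, whose promoters are shown because these are the 2 p53 targets among the 8 genes that were called higher in endothelial-like cells. The element was searched by its name, as 20 bases made of a pair of adjacent 10-base sites, on both strands, with each site's core intact and up to 3 mismatches in all. RefSeq windows on the build GRCr8, covering 250 bases before each start, were available for all 8 genes. The bases in capitals are the match.
Pmaip1, chr18:62255720-62255969, plus strand: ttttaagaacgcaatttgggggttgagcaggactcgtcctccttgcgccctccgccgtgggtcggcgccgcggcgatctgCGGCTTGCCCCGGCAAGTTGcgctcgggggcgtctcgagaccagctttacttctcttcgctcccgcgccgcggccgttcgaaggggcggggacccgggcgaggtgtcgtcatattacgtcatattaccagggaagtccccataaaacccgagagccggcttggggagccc
Cdkn1a, chr20:7150682-7150931, plus strand: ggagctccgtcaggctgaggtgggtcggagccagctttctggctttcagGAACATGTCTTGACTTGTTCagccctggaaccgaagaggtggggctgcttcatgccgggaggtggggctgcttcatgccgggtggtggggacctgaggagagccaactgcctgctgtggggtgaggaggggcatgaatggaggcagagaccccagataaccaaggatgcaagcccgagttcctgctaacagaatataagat
The Pmaip1 match had 3 mismatches and lay 170 to 151 bases before the start. The Cdkn1a match had 1 mismatch and lay 201 to 182 bases before the start. Among all 33469 promoter windows, 1.09% held a match with up to 3 mismatches and 0.0448% one with up to 1. The windows of Ripk1, Ripk3, Mlkl, Bcl2, Bcl2l1 and Fas held none in these bases, and 3 of 19 genes of a list of other p53 targets held one (Ccng1, Sesn1 and Aen). The mismatch limit was chosen after the sequences were seen, and a match describes the letters of the window, not binding.

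The matrix held 180847756 UMIs in 31638 barcodes, with 36242408 to 54295520 UMIs per set and medians of 4383 to 5679.5 UMIs per barcode. After filters on UMIs, genes, mitochondrial share and doublets, 27937 cells remained, and 96 barcode sequences occurred in more than 1 set. Each cell was assigned to a type by the share of that type's marker genes with at least 1 UMI. This gave 2761 endothelial-like, 478 pericyte-like, 330 smooth muscle-like, 11797 microglia-like, 203 border macrophage-like, 714 T cell-like and 7805 oligodendrocyte-like cells, the 7 types with at least 20 cells in every set; 3378 cells passed no gate. Markers kept out of the gate were called higher in their own type for 2 of 3 (border macrophage) to 5 of 5 (endothelial, pericyte, microglia, oligodendrocyte), and neurons and astrocytes were nearly missing, with 1 and 5 cells. The sets stand apart: clustering split microglia-like, oligodendrocyte-like and endothelial-like cells into clusters made mostly of sets 1 and 2 or mostly of sets 3 and 4, so the 4 values are always printed in the order of sets 1 to 4.

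Levels are UMIs per 1000000 UMIs (CPM), from the UMIs of a gene summed over the cells of a type in a set. Capture depends on the gene in a 3' assay, so levels are compared between cell types for 1 gene and never between genes. Orders of levels are over these 7 types unless others are named. A type was called higher or lower than all other gated cells of the same set when the ratio was at least 2-fold with a 95% interval that leaves out 1 in each of the 4 sets. The mix of these other cells differs between sets. Sets 1 to 4 held 885, 345, 583 and 948 endothelial-like and 1233, 2334, 1884 and 2354 oligodendrocyte-like cells. A ratio thus depends on this mix as well as on the type itself. Of the 56 pairs of a member and a type, 8 were called higher and 10 lower. Over all 12222 measured genes and the same 7 types, 7230 pairs were called higher and 11950 lower. Calls for the 8 genes fell on 6 of the 7 types. Without set 1 the counts for the 8 genes were 13 higher and 10 lower, the largest change made by leaving out a set. A call must pass in every set, so leaving out a set could add calls but not lose one. The same holds for lowering the minimum to 1 UMI.

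**Figure D1:**
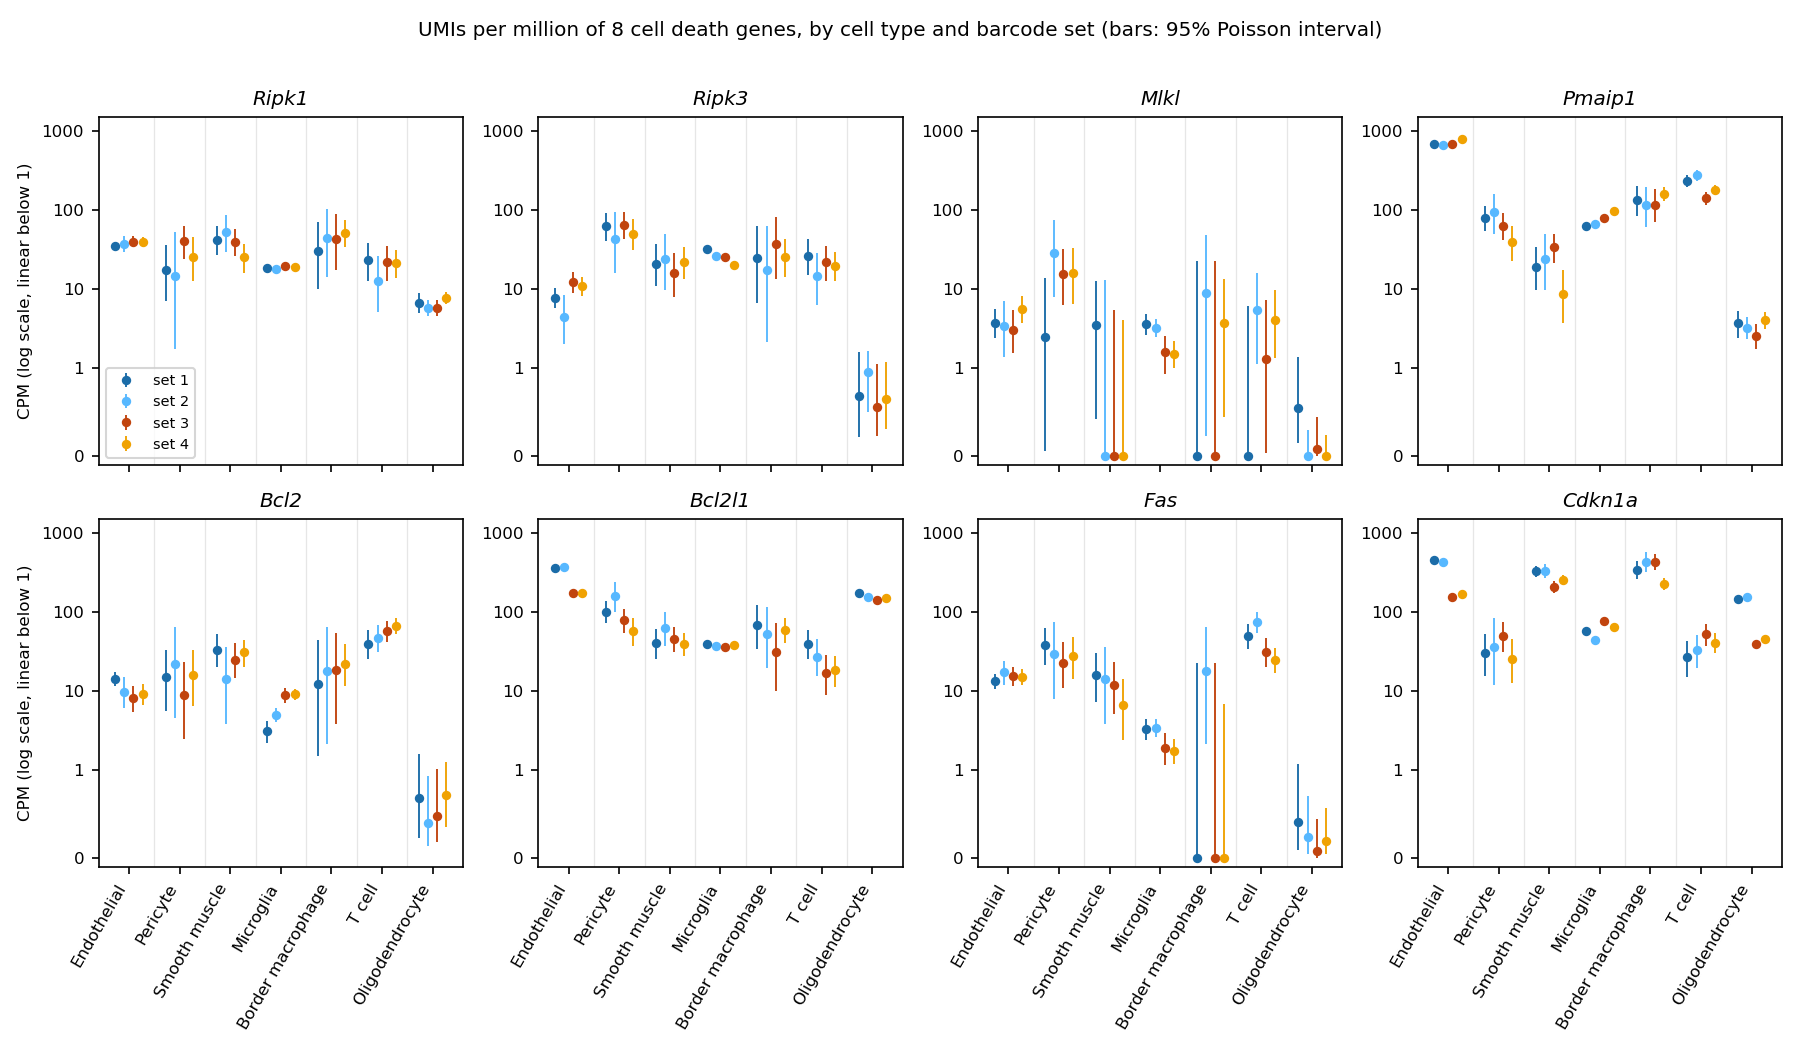
CPM (log scale, linear below 1) of each of the 8 genes in 7 cell types, with 1 point per barcode set and bars for the exact Poisson 95% interval. Pmaip1 sits between 666 and 790 CPM in endothelial-like cells and between 2.56 and 4.10 CPM in oligodendrocyte-like cells, while the Cdkn1a points of endothelial-like and oligodendrocyte-like cells spread widely over the sets.

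Ripk1, the kinase that links death receptors to necroptosis or to survival signalling, was higher in endothelial-like cells than in the other gated cells. It had 35.4, 37.6, 40.3 and 40.3 CPM in endothelial-like cells of sets 1 to 4, against 15.2, 13.45, 13.96 and 15.3 CPM in the other gated cells. The ratios were 2.32, 2.79, 2.89 and 2.63, with 95% intervals from 1.95 at the lowest bound to 3.57 at the highest. In endothelial-like cells 3 of the 8 genes were called higher (Ripk1, Pmaip1 and Cdkn1a) and 0 lower, beside 10.1% of all 12222 measured genes called higher there and 14.7% called lower. The endothelial level of Ripk1 lay in the same range as that of smooth muscle-like cells (42.5, 52.7, 39.9 and 25.3 CPM) and border macrophage-like cells (30.8, 44.5, 43.6 and 52.1 CPM), which passed no call. Without set 4 Ripk1 was called higher in smooth muscle-like cells, at a median log2 ratio of 1.26. With a stricter cell filter, of at least 1000 UMIs and at most 10% mitochondrial UMIs, the endothelial call was lost at a median log2 ratio of 1.20.

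The lowest Ripk1 level was that of oligodendrocyte-like cells, at 6.74, 5.86, 5.83 and 7.80 CPM, against 23.5, 19.7, 25.8 and 24.3 CPM in the other gated cells. The ratios ranged from 0.226 to 0.321. Oligodendrocyte-like cells had 6 of the 8 genes called lower (Ripk1, Ripk3, Mlkl, Pmaip1, Bcl2 and Fas) and 0 higher, beside 25.5% of all measured genes called lower and 17.9% called higher in these cells. Microglia-like cells held between 17.9 and 19.6 CPM of Ripk1, T cell-like cells between 12.8 and 23.3 CPM, and pericyte-like cells between 14.6 and 40.7 CPM over the sets, and these ranges overlap.

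Ripk3, the kinase that acts on Mlkl, followed another order. Pericyte-like cells had 63.1, 43.8, 65.6 and 50.8 CPM, against 17.2, 15.5, 12.4 and 12.1 CPM in the other gated cells. All 4 pericyte values lay above every value of the other 6 types. Only 6 to 29 UMIs per set stand behind them, so the ratio of 2.82 in set 2 has a 95% interval of 1.03 to 6.18, and the call was lost under 7 of 15 alternatives, where the median log2 ratio lay between 1.52 and 2.05. In pericyte-like cells 2 of the 8 genes were called higher (Ripk3 and Fas), beside 6.68% of all measured genes called higher and 3.80% called lower.

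Microglia-like cells carried most Ripk3 UMIs, 1524 over the sets. Their levels were 32.2, 26.7, 25.4 and 20.6 CPM, against 7.40, 4.00, 6.22 and 6.41 CPM in the other gated cells, and the ratios ran from 3.22 in set 4 to 6.66 in set 2. This was the 1 call higher in microglia-like cells, where 9.83% of all measured genes were called higher, and it held under all 15 alternatives. Among the other gated cells, oligodendrocyte-like cells, with 0.559 to 0.963 CPM, were the most numerous in every set. The microglial range overlapped those of border macrophage-like cells (17.8 to 37.4 CPM) and smooth muscle-like cells (16.3 to 24.6 CPM), while T cell-like cells held 14.6 to 26.7 CPM.

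Oligodendrocyte-like cells had almost no Ripk3, with 5, 12, 7 and 10 UMIs in sets 1 to 4. That came to 0.687, 0.963, 0.559 and 0.650 CPM, against 23.3, 23.6, 22.8 and 19.5 CPM in the other gated cells, ratios of 0.0246 to 0.0408. Endothelial-like cells had 7.77, 4.45, 12.4 and 10.96 CPM, below pericyte-like, microglia-like and T cell-like cells in every set and above oligodendrocyte-like cells in every set. Within the vessel wall, Ripk1 and Ripk3 therefore differed in their order: the Ripk3 values of pericyte-like cells exceeded those of endothelial-like cells in all 4 sets, and the Ripk1 values of pericyte-like cells were below those of endothelial-like cells in 3 of the 4 sets.

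Mlkl, which encodes the executor that breaches the membrane, gave few UMIs in every type. Microglia-like cells had 3.64, 3.29, 1.61 and 1.53 CPM from 46, 60, 17 and 27 UMIs, and endothelial-like cells had 3.81, 3.46, 3.10 and 5.69 CPM. Pericyte-like cells had 2.52, 29.2, 15.8 and 16.2 CPM from 1, 4, 7 and 7 UMIs, so that set 1 stood below the others. Without set 1, Mlkl was called higher in pericyte-like cells, with a median log2 ratio of 3.78. Smooth muscle-like cells had 2 Mlkl UMIs in all, in set 1, and the 0 UMIs of sets 2 to 4 allow up to 10.5, 4.43 and 3.31 CPM.

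The 1 call for Mlkl was lower in oligodendrocyte-like cells, with 4, 0, 1 and 0 UMIs in the 4 sets, against 80, 78, 39 and 71 UMIs in the other gated cells. The level was 0.550 and 0.0799 CPM in sets 1 and 3, against 3.51 and 2.36 CPM in the other gated cells. The 0 UMIs of sets 2 and 4 allow up to 0.241 and 0.195 CPM, against 3.39 and 2.73 CPM in the other gated cells. The call was lost when genes needed 50 UMIs in each set or when cells were thinned to 1000 UMIs.

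Cells in which all 3 necroptosis genes were caught were rare. Ripk1, Ripk3 and Mlkl UMIs met in 0, 1, 2 and 2 endothelial-like cells of sets 1 to 4 (of 885, 345, 583 and 948 cells), in 2, 1, 0 and 1 microglia-like cells (of 2807, 4049, 1701 and 3240), and in no oligodendrocyte-like cell. Ripk1 and Ripk3 were caught together in 31, 44, 24 and 34 microglia-like cells and in 16, 1, 14 and 15 endothelial-like cells. Low capture, free RNA and doublets can each move such counts, and their part was not tested.

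**Figure D2:**
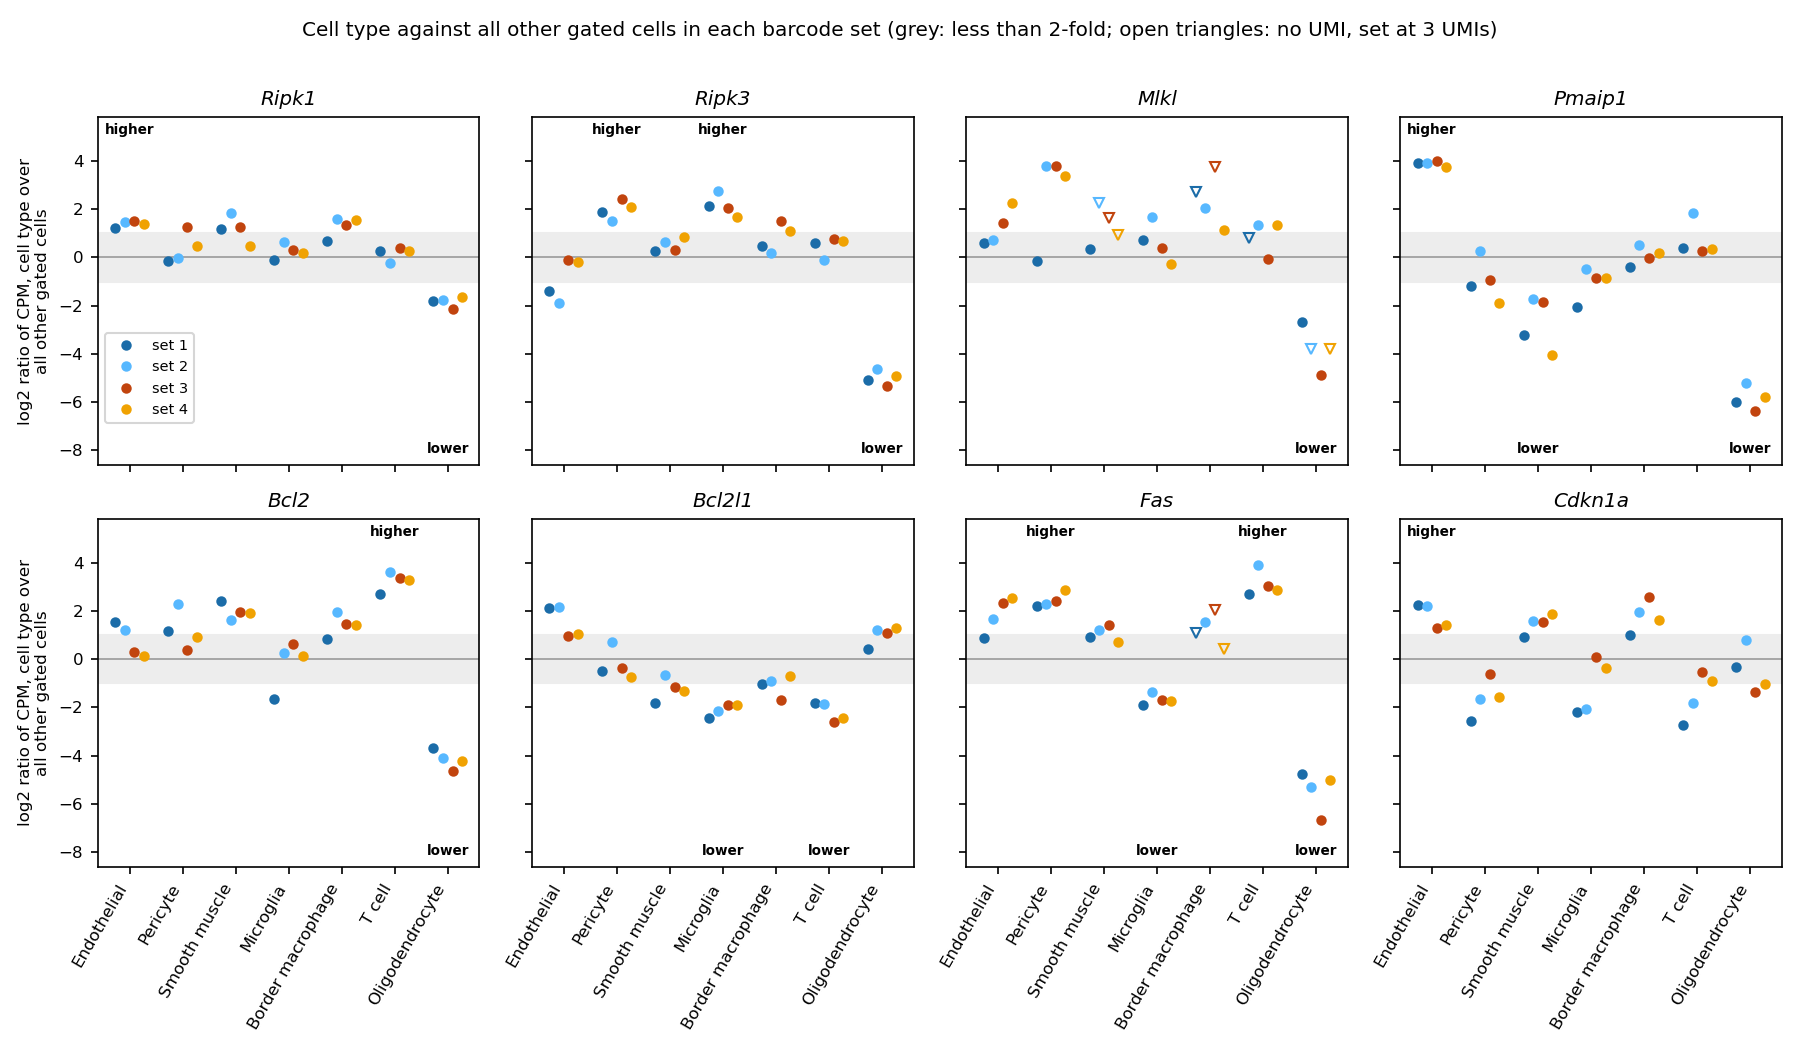
Log2 ratio of CPM in a cell type over all other gated cells, by barcode set, for 7 cell types and 8 genes; the grey band marks less than 2-fold, open triangles mark types with no UMI set at 3 UMIs (the true ratio lies at or below), and the words mark the 18 calls. The 4 Pmaip1 points of endothelial-like cells lie between 3.74 and 4.02, and those of oligodendrocyte-like cells between -6.37 and -5.21.

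Pmaip1, the BH3-only gene also called NOXA, was higher in endothelial-like cells than in the other gated cells. Endothelial-like cells had 687, 666, 689 and 790 CPM, against 45.2, 44.5, 42.6 and 59.1 CPM in the other gated cells. The ratios were 15.2, 14.96, 16.2 and 13.4, with intervals from 12.7 to 17.4 at the outer bounds, and the call held under all 15 alternatives. The 4 endothelial values were within 1.19-fold of each other and above the T cell-like level, the next in order.

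Most endothelial-like cells contributed to this level. A Pmaip1 UMI was found in 80.5%, 76.8%, 78.2% and 75.0% of endothelial-like cells, at median depths of 5184, 4175, 4687 and 3859 UMIs, and 1 cell held up to 61 UMIs. Oligodendrocyte-like cells, the type with the lowest share, gave 2.19%, 1.41%, 1.65% and 2.17% at median depths of 5385, 4950, 6231 and 6018 UMIs. The part of free RNA in this share was not tested. With every cell thinned to 1000 UMIs (173 shallower of 2761 endothelial-like and 169 of 7805 oligodendrocyte-like cells left out), the shares were 42.5%, 40.6%, 41.7% and 45.5% in endothelial-like cells and 0.328%, 0.217%, 0.278% and 0.476% in oligodendrocyte-like cells. The tenth of endothelial-like cells with most Pmaip1 UMIs held 41.9% to 44.5% of them.

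T cell-like cells came next with 235, 278, 144 and 181 CPM and border macrophage-like cells followed with 136, 116, 118 and 162 CPM, and neither passed a call. Microglia-like cells had 64.3, 67.6, 81.1 and 97.1 CPM and pericyte-like cells 80.7, 94.9, 63.4 and 39.3 CPM, with overlapping ranges. Smooth muscle-like cells had 19.5, 24.6, 34.0 and 8.82 CPM, against 183, 80.4, 124 and 146 CPM in the other gated cells, which made the 1 call in this type, beside 7.24% of all measured genes called lower and 7.69% higher there. It was lost with Leiden clusters in place of the gate (median log2 ratio -1.83), with cells whose gate and cluster agree (-1.73) and with thinned cells (-2.99). The alternatives that used clusters left few endothelial cells of sets 1 and 2 among the other cells. The smooth muscle-like level lay above that of oligodendrocyte-like cells in every set, and the other gated cells include the endothelial-like cells, with the highest level.

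Oligodendrocyte-like cells had the lowest Pmaip1 level of the 7 types, with 3.71, 3.29, 2.56 and 4.10 CPM, against 236, 121, 212 and 225 CPM in the other gated cells. The ratios lay between 0.0121 and 0.0271. Their 27, 41, 32 and 63 UMIs stood in 142 of 7805 cells.

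**Figure D3:**
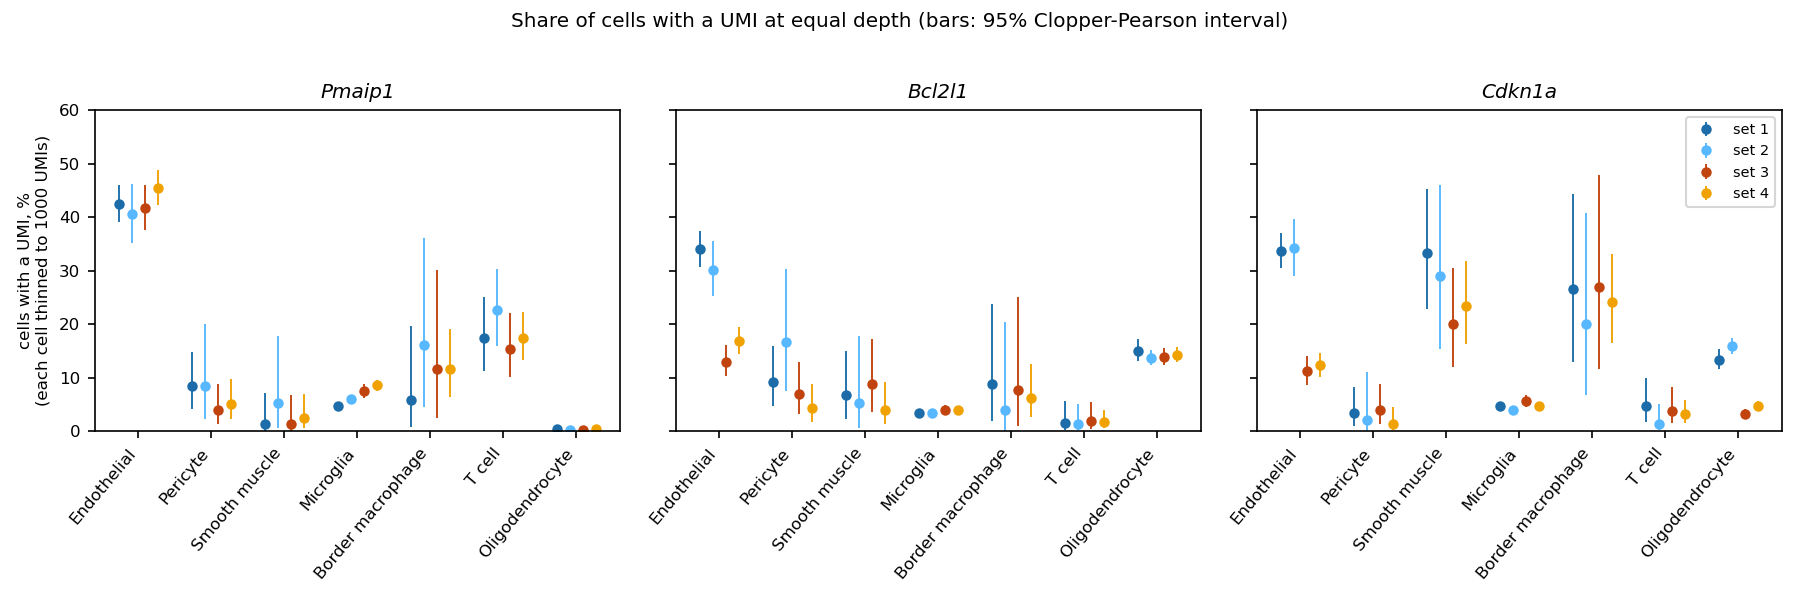
Share of cells with at least 1 UMI of Pmaip1, Bcl2l1 and Cdkn1a after each cell was thinned to 1000 UMIs, in percent, by cell type and barcode set, with exact Clopper-Pearson 95% intervals. Pmaip1 reaches 40.6% to 45.5% of endothelial-like cells in all 4 sets, whereas Cdkn1a and Bcl2l1 reach 30.2% to 34.2% in sets 1 and 2 and 11.2% to 16.8% in sets 3 and 4.

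Bcl2, the founding survival gene of the family, was highest in T cell-like cells. They had 40.0, 47.5, 57.6 and 67.3 CPM from 24, 26, 44 and 81 UMIs, against 6.21, 3.92, 5.52 and 6.87 CPM in the other gated cells. The ratios were 6.44, 12.1, 10.4 and 9.79, and all 4 values exceeded those of every other main type. T cell-like cells had 2 of the 8 genes called higher (Bcl2 and Fas) and 1 lower (Bcl2l1), beside 5.85% of all measured genes called higher and 11.8% called lower. The Bcl2 call was lost with thinned cells, at a median log2 ratio of 2.61.

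Smooth muscle-like cells had 33.7, 14.1, 25.1 and 30.9 CPM of Bcl2, the next level in order, without a call, since set 2 held 4 UMIs. Bcl2 was called higher in smooth muscle-like cells without set 2 (median log2 ratio 1.96), with a stricter gate (2.10) and with cells whose gate and cluster agree (1.98). Oligodendrocyte-like cells had 0.687, 0.401, 0.479 and 0.715 CPM, against 8.87, 6.86, 11.7 and 13.3 CPM in the other gated cells, and were called lower.

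Bcl2l1, which encodes the survival protein BCL-XL, was distributed otherwise. Endothelial-like cells had 358, 370, 176 and 176 CPM, followed by oligodendrocyte-like cells with 172, 157, 144 and 153 CPM and pericyte-like cells with 101, 161, 79.2 and 57.8 CPM. In sets 3 and 4 the endothelial values lay near those of oligodendrocyte-like cells, and the endothelial ratio to all other gated cells was 1.95 in set 3, so no call was made. Without set 3 Bcl2l1 was called higher in endothelial-like cells, with a median log2 ratio of 2.13, as with Leiden clusters (1.71) and the stricter cell filter (1.89). Leiden clusters kept only 48 and 24 endothelial cells in sets 1 and 2, since the cluster with most of them was left unnamed. In oligodendrocyte-like cells Bcl2l1 was called higher without set 1 (1.22), with Leiden clusters (1.44) and with cells whose gate and cluster agree (1.49). The alternatives that used clusters left few endothelial cells of sets 1 and 2 among the other cells, and the part of this was not tested. Bcl2l1 was called lower in smooth muscle-like cells without set 2, at -1.30.

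With all sets, both calls for Bcl2l1 were lower. Microglia-like cells had 39.4, 36.8, 36.7 and 38.0 CPM, against 212, 165, 137 and 140 CPM in the other gated cells, with 14.1% to 17.99% of cells holding a UMI. T cell-like cells had 40.0, 27.4, 17.0 and 18.3 CPM, against 142, 100.3, 103 and 98.9 CPM in the other gated cells. Microglia-like cells had 2 of the 8 genes called lower (Bcl2l1 and Fas), beside 31.5% of all measured genes called lower there, a share above their own. The survival genes thus ran in opposite orders in T cell-like and oligodendrocyte-like cells: T cell-like cells were called higher for Bcl2 and lower for Bcl2l1, and oligodendrocyte-like cells were called lower for Bcl2 and not called for Bcl2l1, with ratios of 1.33 to 2.43.

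Fas, the receptor of the Fas ligand, was called higher in T cell-like and pericyte-like cells. T cell-like cells had 50.03, 74.9, 31.4 and 24.9 CPM, against 7.71, 5.07, 3.85 and 3.44 CPM in the other gated cells, and the ratios were 6.49, 14.8, 8.15 and 7.25. Pericyte-like cells had 37.8, 29.2, 22.6 and 27.7 CPM from 15, 4, 10 and 12 UMIs, against 8.16, 6.06, 4.30 and 3.81 CPM in the other gated cells. The ranges of both types overlapped. The pericyte call was lost under TMM scaling (median log2 ratio 1.90), median-of-ratios scaling (1.93) and thinning (2.31).

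Endothelial-like cells had 13.5, 17.3, 15.5 and 15.2 CPM of Fas, a narrow range over the sets, with no call, and they were called higher without set 1 (median log2 ratio 2.34), with a stricter gate (2.30), with the stricter cell filter (1.81) and by the mean over cells (1.75). Microglia-like cells had 3.33, 3.46, 1.90 and 1.76 CPM, against 12.3, 8.99, 6.11 and 5.78 CPM in the other gated cells, and were called lower. That call was lost under TMM scaling (-1.15) and median-of-ratios scaling (-1.13), which raise the median of all genes in microglia-like cells by 0.58 on the log2 scale. Oligodendrocyte-like cells had 3, 3, 1 and 3 Fas UMIs in all, or 0.412, 0.241, 0.0799 and 0.195 CPM, against 11.2, 9.34, 7.99 and 6.35 CPM in the other gated cells. Border macrophage-like cells had 2 Fas UMIs, both in set 2.

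Cdkn1a, which encodes the cell cycle inhibitor p21, was called higher in endothelial-like cells. They had 463, 433, 156 and 169 CPM, against 98.5, 94.2, 63.4 and 62.6 CPM in the other gated cells. The ratios were 4.70, 4.60, 2.46 and 2.70, and the call held under all 15 alternatives. A Cdkn1a UMI was found in 76.2%, 70.7%, 37.7% and 35.4% of endothelial-like cells, and after thinning in 33.6%, 34.2%, 11.2% and 12.3%. Pericyte-like cells, the type with the lowest share, gave 7.09%, 10.2%, 7.46% and 4.17% at median depths of 2876, 2754, 2985.5 and 2476 UMIs, and 3.33%, 2.08%, 3.88% and 1.26% after thinning.

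Border macrophage-like cells with 346, 436, 436 and 227 CPM and smooth muscle-like cells with 328, 330, 208 and 258 CPM reached the same range as endothelial-like cells. Neither was called, since the ratio of border macrophage-like cells in set 1 (log2 0.99) and that of smooth muscle-like cells in set 1 (log2 0.93) were just under 2-fold. Border macrophage-like cells were called higher under 8 of the 15 alternatives, at median log2 ratios of 1.85 (thinned cells) to 2.14 (cells whose gate and cluster agree), with 1.94 under TMM scaling, 1.97 under median-of-ratios scaling and 1.95 without set 1. Smooth muscle-like cells were called higher under 6, at 1.41 (stricter cell filter) to 1.75 (thinned cells), with 1.56 without set 1. For both types these include the alternatives that used clusters, which left few endothelial cells of sets 1 and 2 among the other cells. In border macrophage-like cells 0 of the 8 genes were called, beside 1.07% of all measured genes called higher and 3.27% lower, in a type of only 203 cells. Pericyte-like cells, with 30.3, 36.5, 49.8 and 25.4 CPM, and T cell-like cells, with 26.7, 32.9, 52.3 and 40.7 CPM, had the lowest Cdkn1a levels of the 7 types by the median over the sets. B cell-like cells, described without calls, were lower still, with a median of 6.56 CPM from 7 UMIs. Cdkn1a was called lower in pericyte-like cells under 6 alternatives, at median log2 ratios of -2.29 with Leiden clusters, -2.21 with cells whose gate and cluster agree, -2.11 with TMM scaling, -2.08 with median-of-ratios scaling, -1.67 with a stricter gate and -1.64 without set 3.

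Pmaip1 and Cdkn1a were caught in the same cell in 66.7%, 58.8%, 33.6% and 30.9% of endothelial-like cells of sets 1 to 4, in 2.81%, 3.21%, 6.70% and 4.81% of microglia-like cells and in 0.892%, 0.771%, 0.531% and 0.637% of oligodendrocyte-like cells. In smooth muscle-like cells, where the Cdkn1a level was in the endothelial range and Pmaip1 was low, both were caught in 10.5%, 4.88%, 8.05% and 3.17% of cells. These shares are not adjusted for depth. They also follow from the share of each gene alone, and no joint presence beyond that was tested.

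The 4 sets differed for 9 of the 48 pairs of a member and a type with at least 20 UMIs, by the rule that the highest set is at least 2-fold above the lowest with Poisson 95% intervals that do not overlap. Over all measured genes, the share apart by this rule was 5.54% to 16.2%, depending on the type. In endothelial-like cells 3 of the 8 genes were apart (Ripk3, Bcl2l1 and Cdkn1a), beside 13.5% of all measured genes in that type. Cdkn1a spanned 2.97-fold, from 463 CPM (446 to 480) in set 1 to 156 CPM (143 to 170) in set 3. Bcl2l1 spanned 2.11-fold, from 370 CPM (344 to 398) in set 2 to 176 CPM (162 to 190) in set 3. For both, sets 1 and 2 were high and sets 3 and 4 low, with no overlap between them, and leaving out any 1 set kept the rest apart. Pmaip1 in the same cells was not apart, with a span of 666 to 790 CPM.

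Other measures of the endothelial-like cells also differed between the sets. Their haemoglobin UMIs made up 32675, 75999, 13090 and 25454 CPM, their immediate early list 46110, 48834, 51275 and 57314 CPM, and their mitochondrial share was 9.1%, 7.8%, 10.0% and 7.8% in sets 1 to 4. Endothelial gate markers summed to 14310, 13915, 14351 and 14357 CPM and hardly moved. The part of haemoglobin, depth and immediate early genes in the spread of Cdkn1a and Bcl2l1 was not tested.

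Oligodendrocyte-like cells had the widest span of all for Cdkn1a, 3.98-fold, with 147.9, 156, 39.2 and 45.1 CPM in sets 1 to 4. This was the 1 of the 8 genes apart in these cells, beside 10.3% of all measured genes, and it remained apart when any 1 set was left out. A Cdkn1a UMI was found in 51.8%, 49.6%, 19.2% and 22.3% of them, and after thinning in 13.4%, 15.8%, 3.17% and 4.63%. Sets 1 and 2 were high and sets 3 and 4 low in these cells as in endothelial-like cells. Median depth was higher in sets 3 and 4, the oligodendrocyte gate markers summed to 35195, 34025, 46432 and 45421 CPM, and the immediate early list summed to 7455.5, 8555, 5606 and 9346 CPM; their part in the Cdkn1a spread was not tested. Ependymal-like cells (143 in all) had 247, 222, 78.0 and 108 CPM of Cdkn1a, also highest in sets 1 and 2. Microglia-like cells had 57.1, 44.5, 78.4 and 64.6 CPM, with set 3 highest, and were not apart. Bcl2l1 stayed between 144 and 172 CPM in oligodendrocyte-like cells.

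In microglia-like cells 2 of the 8 genes were apart, beside 16.1% of all measured genes. Mlkl spanned 2.38-fold with sets 1 and 2 high, and remained apart without any 1 set. Bcl2 spanned 2.95-fold in the other direction, with 3.09, 4.99, 8.82 and 9.12 CPM, and without set 1 the span was 1.83-fold and no longer apart. Median depth in these cells was 4448, 4292, 6507 and 5585.5 UMIs, and its part was not tested.

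In T cell-like cells Fas was apart with a 3.01-fold span, highest in set 2 and lowest in set 4, beside 10.0% of all measured genes apart there, and without set 2 the span was 2.01-fold with overlapping intervals. In pericyte-like cells Bcl2l1 spanned 2.78-fold (7.84% of measured genes were apart), which was 1.75-fold without set 2 and 2.03-fold with overlapping intervals without set 4, and not apart with the stricter cell filter. In smooth muscle-like cells Pmaip1 spanned 3.86-fold (5.54% were apart), which without set 3 or set 4 was 2.79-fold or 1.74-fold and not apart, and its 49 UMIs did not reach the minimum of 50. Ripk3 in endothelial-like cells, 2.79-fold, was 1.60-fold without set 2 and 2.46-fold without set 3, not apart either time. It was also not apart with Leiden clusters, with cells whose gate and cluster agree, with TMM scaling and with median-of-ratios scaling. Leiden clusters left 48 and 24 endothelial cells in sets 1 and 2, and cells whose gate and cluster agree were fewer still. No member was apart in border macrophage-like cells, where 16.2% of measured genes were, but Cdkn1a was apart there with a stricter gate, with cells whose gate and cluster agree and with TMM and median-of-ratios scaling. With both scalings Fas in microglia-like and Bcl2 in endothelial-like cells were apart too, and Fas in microglia-like cells also with Leiden clusters and with the stricter cell filter. Pmaip1 in T cell-like cells was apart with cells whose gate and cluster agree.

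Other genes of the same pathways were counted from 7 lists, of which 106 of 114 entries were in the matrix. Of 18 measured genes of the necroptosis pathway, 4 were called higher and 0 lower in microglia-like cells, 3 higher and 1 lower in T cell-like cells, 1 higher and 3 lower in endothelial-like cells, and 0 higher and 8 lower in oligodendrocyte-like cells. Beside these counts, 9.83% of all measured genes were called higher and 31.5% lower in microglia-like cells, and 5.85% and 11.8% in T cell-like cells. The shares were 10.1% and 14.7% in endothelial-like cells, and 17.9% and 25.5% in oligodendrocyte-like cells. The list's median log2 ratio was 0.08 in microglia-like cells, beside -0.67 over all measured genes. Tnfaip3, a brake on tumour necrosis factor signalling, had 225, 250.3, 206 and 253 CPM in microglia-like cells, against 13.7, 14.1, 13.9 and 22.3 CPM in the other gated cells. Zbp1, a nucleic acid sensor that can engage Ripk3, was higher in microglia-like and T cell-like cells, with 40.0, 16.4, 17.0 and 20.8 CPM in T cell-like cells, against 6.86, 5.70, 2.79 and 2.79 CPM in the other gated cells. Casp8, the protease that cleaves Ripk1 and Ripk3, was at 0, 0.0803, 0.0799 and 0.260 CPM in oligodendrocyte-like cells, against 6.63, 5.26, 7.75 and 7.20 CPM in the other gated cells, and was called lower.

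In the rest of the BCL-2 family (12 measured genes), endothelial-like cells had 3 called higher and 3 lower, microglia-like cells 3 and 4, T cell-like cells 2 and 1, and oligodendrocyte-like cells 2 and 6. Over all measured genes the shares were, in the same order, 10.1% and 14.7%, 9.83% and 31.5%, 5.85% and 11.8%, and 17.9% and 25.5%. The endothelial genes called higher were Bik, Bok and Bad, all promoters of cell death, and those called lower were Bid and Bmf, also promoters of cell death, and the survival gene Bcl2a1. Bid and Bmf, both BH3-only genes, had median log2 ratios of -2.14 and -3.90. Bik, a BH3-only gene like Pmaip1, had 17.1, 13.35, 7.05 and 4.64 CPM in endothelial-like cells, against 0.674, 0.538, 0.275 and 0.874 CPM in the other gated cells. Bcl2a1 had 13.01, 25.2, 5.36 and 7.59 CPM in endothelial-like cells, against 485, 420.4, 233 and 263 CPM in the other gated cells, and it was called higher in microglia-like cells at a median log2 ratio of 3.26. Oligodendrocyte-like cells were higher for Bnip3, a mitochondrial member of the family (305, 290, 304 and 305.5 CPM, against 60.6, 29.1, 31.5 and 29.4 CPM in the other gated cells), and for the survival gene Bcl2l2.

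The death ligands and receptors held 5 measured genes besides Fas, and all 5 were called lower in oligodendrocyte-like cells, where the list's median log2 ratio was -5.03, beside 0.04 over all measured genes. In these cells 25.5% of all measured genes were called lower. Faslg, the ligand of Fas, had 255, 371, 349 and 368 CPM in T cell-like cells, against 0.340, 0.544, 0.318 and 0.897 CPM in the other gated cells, a median log2 ratio of 9.48. T cell-like cells were thus called higher for the ligand and for the receptor. Endothelial-like cells were higher for Tnfsf10, which encodes the death ligand TRAIL (46.0, 54.4, 105.5 and 98.0 CPM, against 2.57, 2.33, 2.20 and 2.68 CPM in the other gated cells). Among 13 measured caspases and executioners, no type had more than 2 called in either direction. Over all measured genes, 1.07% to 31.5% were called, depending on type and direction.

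**Figure D4:**
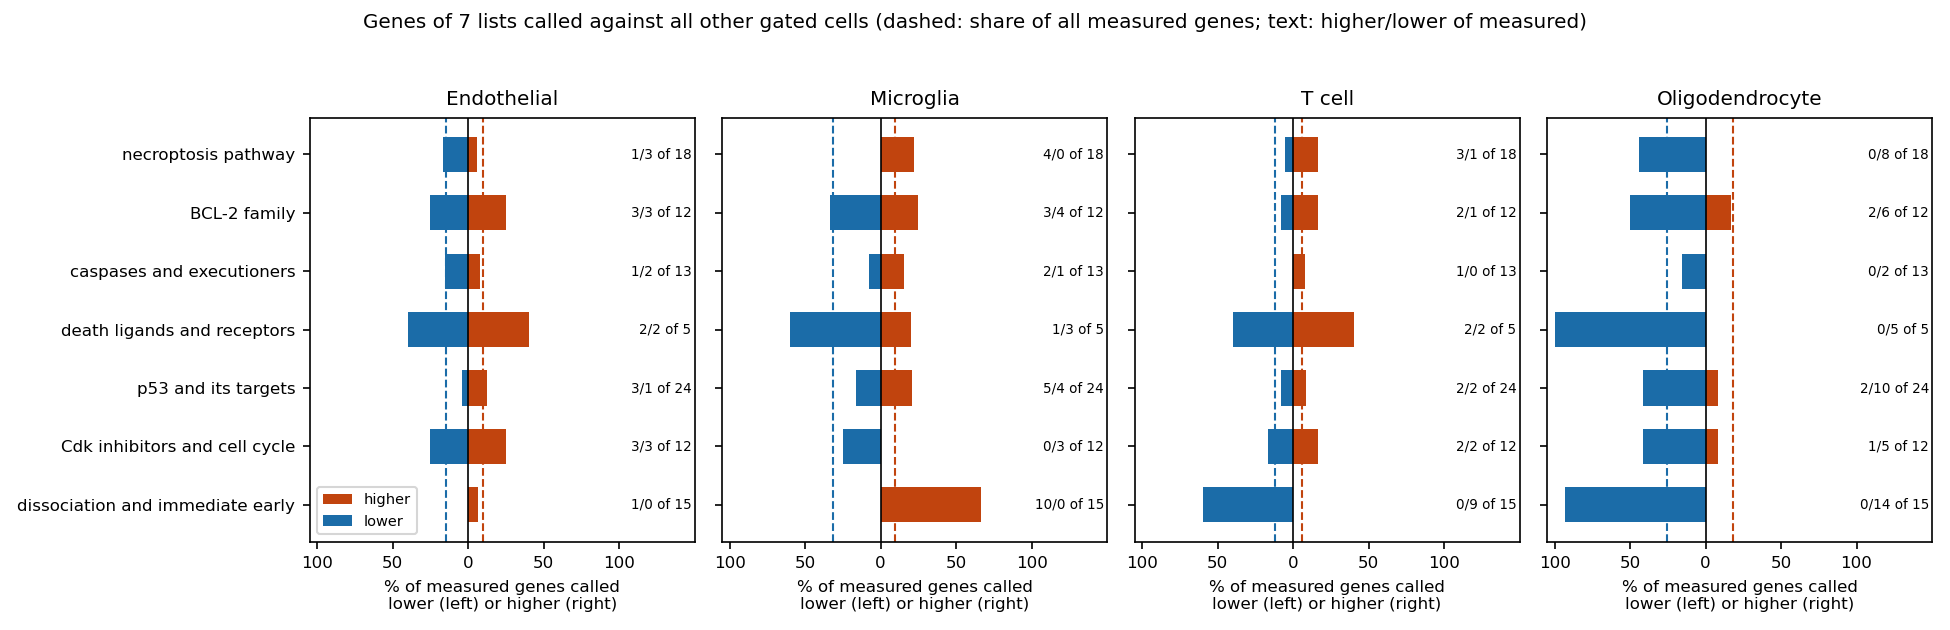
Share of the measured genes of 7 lists called higher (right) or lower (left) against all other gated cells in 4 cell types, in percent; the text gives the counts and the dashed lines the share over all measured genes. All 5 death ligands and receptors and 14 of 15 dissociation and immediate early genes are called lower in oligodendrocyte-like cells, and 10 of those 15 are called higher in microglia-like cells.

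Of 24 measured genes of the list of p53 and its targets, 3 were called higher in endothelial-like cells and 1 lower, with a list median log2 ratio of -0.17, beside -0.13 over all measured genes. The genes called higher were Perp, Polk and Plk2, the last named because the count is small. Perp, a membrane protein linked to apoptosis and cell adhesion, had 45.5, 36.6, 31.9 and 31.6 CPM in endothelial-like cells, against 0.253, 0.269, 0.157 and 0.109 CPM in the other gated cells. Mdm2 and Bax are given for their roles and were chosen after their values were seen. Mdm2, a ubiquitin ligase and p53 target, had 56.5, 53.9, 52.5 and 48.7 CPM in endothelial-like cells, with no call. Bax, at 108, 122, 122 and 122 CPM in endothelial-like cells, was not called in any of the 7 types. The share of the p53 list called higher in endothelial-like cells was 12.5%, beside 10.1% of all measured genes. The part of p53 in the endothelial Pmaip1 and Cdkn1a levels was not tested.

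Oligodendrocyte-like cells had 10 of the 24 p53 list genes called lower and 2 higher, Phlda3 and Zmat3, beside 25.5% and 17.9% of all measured genes. In microglia-like cells, where 9.83% of all measured genes were called higher and 31.5% lower, 5 were called higher, among them Mdm2, with 178, 194, 133 and 133 CPM, and 4 lower. Of the other Cdk inhibitors, Cdkn2b (p15) was higher in endothelial-like cells, Cdkn1c (p57) in pericyte-like cells, with 68.1, 183, 106 and 92.4 CPM, against 16.6, 14.3, 23.5 and 17.6 CPM in the other gated cells, and in smooth muscle-like cells, and Cdkn1b (p27) in oligodendrocyte-like cells, with 330.2, 323, 277 and 306 CPM, against 135, 138, 120.5 and 134 CPM in the other gated cells.

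Genes known to respond to tissue dissociation were counted beside these lists, since Pmaip1 and Cdkn1a respond to stress. Of 15 such genes, 10 were called higher in microglia-like cells, 1 (Atf3) in endothelial-like cells and 0 in T cell-like and oligodendrocyte-like cells, where 9 and 14 were called lower. Over all measured genes, 9.83%, 10.1%, 5.85% and 17.9% were called higher in these types, in this order. In T cell-like and oligodendrocyte-like cells 11.8% and 25.5% were called lower. Atf3, a stress-induced transcription factor, had 5302, 4979, 4944 and 6214 CPM in endothelial-like cells, against 1749, 1933, 1182 and 1515 CPM in the other gated cells. The summed list reached 46110 to 57314 CPM in endothelial-like, 57985 to 71054 CPM in microglia-like, 17772 to 20279 CPM in T cell-like and 5606 to 9346 CPM in oligodendrocyte-like cells. The part of dissociation in the Pmaip1 and Cdkn1a levels was not tested.

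Cell types with fewer cells were described without calls. Ependymal-like cells had 59.3, 44.0, 56.3 and 41.4 CPM of Fas from 57, 38, 13 and 5 UMIs, in the range of T cell-like cells, and 5 Pmaip1 UMIs in all. B cell-like cells (73 in all) had 46.9, 38.0, 37.2 and 49.7 CPM of Bcl2, overlapping the range of T cell-like cells, and 4.26, 13.8, 18.6 and 6.22 CPM of Bcl2l1. Monocyte-like cells (63) had 101, 126, 243 and 298 CPM of Pmaip1 and 180.0, 278, 139 and 116 CPM of Cdkn1a. Their 8 Mlkl UMIs gave 0 to 67.5 CPM over the sets, a range that holds all values of pericyte-like cells. Neutrophil-like cells (54, with 4 in set 3) had 28 Pmaip1 and 8 Ripk3 UMIs in all.

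Over 12 cell types with at least 50 cells in all, the genes whose log2 CPM followed each member most closely were named by Pearson's r, among 9513 genes. They were Maff (0.92) for Ripk1, Rcsd1 (0.98) for Ripk3, Dram1 (0.90) for Mlkl, Srgn (0.93) for Pmaip1, Arhgef6 (0.93) for Bcl2, Tcta (0.83) for Bcl2l1, S100a11 (0.90) for Fas and Pik3c2a (0.90) for Cdkn1a. Among the 8 genes themselves, Ripk1 and Cdkn1a (0.73), Ripk3 and Pmaip1 (0.67) and Ripk3 and Mlkl (0.66) were closest, and Bcl2 and Bcl2l1 had the lowest r (-0.40). Bcl2 had only 1 UMI in ependymal-like, 1 in neutrophil-like and 2 in monocyte-like cells. All points of these correlations come from the same 4 libraries, and several rest on types with under 100 cells.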

How the data were processed

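Single-cell RNA of rat hippocampus was sequenced from 10x Genomics 3' v3 libraries. The deposited values are UMI counts per gene and barcode, not normalised, made by the authors with Cell Ranger 5.0.0, per the file headers; STAR and the build Rnor_6.0 are named in the submitters' processing notes. The matrix pools 4 barcode sets, which no label ties to a titled sample, so all 4 titled samples stayed without a group in every comparison.

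Cells needed at least 500 UMIs and 300 genes and at most 20% mitochondrial UMIs, and 942 doublets called by Scrublet (scanpy 1.11.5, expected share 6%) were removed in each set. The lowest barcode total was 500 UMIs, so barcodes had been selected before deposit. A cell joined a type when at least 30% and at least 3 of the type's markers had a UMI (red cells, 4 of 5 markers) and no unrelated type reached above 50% of that share. A cell whose highest share was microglia went to border macrophages when it reached 30% and 3 markers of theirs, and these types counted as related. Border macrophage-like cells held 10403 to 12217 CPM of microglia gate markers, against 2267 to 6124 CPM of their own. A mixture with microglia was not tested. These thresholds were set after seeing the data. 155 of 170 gate markers were in the matrix. The 8 genes, the gene lists and the markers were chosen with earlier results of these data known.

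Summed UMIs were divided by the type's total in a set (CPM), with exact Poisson 95% intervals; shares have exact Clopper-Pearson intervals, and ratios exact conditional binomial intervals (scipy 1.17.1). For a comparison between types, a gene needed 20 UMIs over the gated cells of each set, which 12222 genes met; for a comparison between sets, it needed 20 UMIs in the type over all sets. UMIs of 0 were set at 3 counts per library for a ratio. The calling step was tested on simulated data. Named genes were the 8 members and, of each list and type, the 2 called genes with the largest and the 2 with the lowest ratios. Likeness used log2 of CPM plus 5 over median levels and was widened from 4 to 12 types after the data were seen, since 4 types gave r near 1 for many genes. The 15 alternatives covered clusters (27 Leiden clusters, resolution 1), filters, doublets, gates, TMM scaling (edgeR 4.0.16, R 4.3.3) and median-of-ratios scaling, minimum UMIs, thinning, mean over cells, and each set left out. No table of per-sample values was left unused. Ticam1, Mcl1, Bbc3, Hrk, Tnfrsf10b and Cdkn2d were not analysed here. Some genes of the lists are counted but not reported by name.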

Additional observations from a re-analysis of the deposited data

Results flagged for a closer look

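Barcodes with over 20% mitochondrial UMIs were left out of the report. Among the endothelial-like, microglia-like and oligodendrocyte-like ones, a gene is listed here for each set where it had more than the 3 UMIs that a count of 0 allows. Where barcodes are few, this lists high values and leaves out low ones. Levels are CPM of non-mitochondrial UMIs, and no test was made.

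There were 98, 24, 103 and 58 such endothelial-like barcodes in sets 1 to 4. Pmaip1 had 500.1, 234, 384 and 679.7 CPM in them, against 755, 723, 766 and 857 CPM in the endothelial-like cells that were kept. Bcl2l1 had 340.3, 390.4, 161 and 107 CPM in them, against 394, 402, 195 and 191 CPM in the cells that were kept. Cdkn1a had 347, 273 and 83.9 CPM in sets 1 to 3, against 509, 469.9 and 173 CPM in the cells that were kept. The listed values of Pmaip1, Bcl2l1 and Cdkn1a all lay below those of the cells that were kept, but several rest on few UMIs. In the barcodes left out they came from 6 to 72 UMIs for Pmaip1, 6 to 49 for Bcl2l1 and 7 to 50 for Cdkn1a. The Bcl2l1 value of 390.4 CPM, against 402 CPM, came from 10 UMIs and shows no clear difference. Sets were listed by their UMIs in the barcodes left out, and no test was made, so no general difference is drawn. Ripk1 had 27.8, 69.9 and 71.5 CPM in sets 1, 3 and 4, against 38.9, 44.8 and 43.7 CPM in the cells that were kept, and Bcl2 had 34.7 and 27.96 CPM in sets 1 and 3, against 15.7 and 9.09 CPM, from 4 to 10 UMIs each.

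There were 137, 178, 205 and 335 such oligodendrocyte-like barcodes. Bcl2l1 had 301, 160.1, 217 and 150.5 CPM in them, against 192, 174, 161 and 166 CPM in the cells that were kept. Cdkn1a had 185, 127, 22.7 and 47.9 CPM in them, against 165, 173, 43.7 and 48.8 CPM in the cells that were kept, so sets 1 and 2 were again above sets 3 and 4. Pmaip1 had 27.4, 23.6 and 15.97 CPM in sets 1, 2 and 4, against 4.14, 3.64 and 4.43 CPM in the cells that were kept, from 4, 5 and 7 UMIs, and it had 0 UMIs in set 3. Ripk1 had 12.95 and 15.97 CPM in sets 3 and 4, against 6.502 and 8.44 CPM in the cells that were kept. Sets 1 and 2 did not pass the limit for listing Ripk1, so no general difference is drawn.

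There were 107, 159, 16 and 37 such microglia-like barcodes. Bcl2l1 had 117, 46.02 and 107 CPM in sets 1, 2 and 4, against 42.1, 39.1 and 39.4 CPM in the cells that were kept. Set 3, with 16 barcodes, did not pass the limit for listing Bcl2l1. With so few barcodes in sets 3 and 4, no general difference is drawn for any gene here. Pmaip1 had 51.3 and 97.8 CPM in sets 1 and 2, against 68.8 and 71.8 CPM, and Cdkn1a had 58.6 and 57.5 CPM, against 61.1 and 47.3 CPM. Ripk3 had 34.5 CPM in set 2, against 28.3 CPM in the cells that were kept, and Ripk1 had 137.5 CPM in set 3 from 4 UMIs, against 20.6 CPM.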

How the results depend on the processing

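Of the 18 calls of a member in a type, 11 held under all 15 alternatives, and no result changed direction. Leaving out a set and the minimum of 1 UMI are among the 15 but could not lose a call, since a call must pass in every set. The calls lost were named beside their values in the report. With thinned cells, 4270 gene and type pairs were called higher and 5891 lower over all genes, against 7230 and 11950, and 56 and 68 list genes, against 80 and 102; thinning leaves fewer UMIs per gene. With Leiden clusters in place of the gate, 4 of the 8 genes kept the type with the highest share of positive cells; the cause was not tested. Leaving out 1 set gave 9 to 13 member calls higher (8 with all sets) and 10 to 11 lower (10), the same type with the highest positive share for 5 to 7 of 8 genes, the same type with the highest level for 7 to 8, and 6 to 8 pairs apart between sets (9). Fewer sets have to pass a call then. Scaling by TMM moved the median of all genes by 0.58 (log2) in microglia-like, -0.43 in pericyte-like, -0.15 in smooth muscle-like, 0.13 in border macrophage-like and -0.12 in oligodendrocyte-like cells. No paired analysis was possible because the barcode sets carry no replicate number and no group. Border macrophage-like cells (25 to 118 per set) and Mlkl (393 UMIs) limit what could be detected.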

Other observations

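The receptors upstream of these pathways also differed between types. Ifnar1, a chain of the type I interferon receptor, had 147, 139.9, 281 and 275 CPM in endothelial-like cells, against 24.4, 23.1, 31.2 and 33.2 CPM in the other gated cells, and was called higher. Tnfrsf1a, the tumour necrosis factor receptor that recruits Ripk1, had 95.9, 80.3, 134 and 71.6 CPM in pericyte-like cells, against 25.2, 20.9, 19.6 and 20.3 CPM in the other gated cells, and was called higher. Tigar, a p53-induced regulator of glycolysis, had 28.3, 17.6, 34.0 and 30.9 CPM in smooth muscle-like cells, against 3.05, 3.04, 3.88 and 3.54 CPM in the other gated cells. Tlr3, a receptor for double-stranded RNA that can engage Ripk3, had 53.01, 52.5, 64.2 and 68.7 CPM in microglia-like cells, against 5.74, 3.89, 4.05 and 3.80 CPM in the other gated cells.

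The clusters that held most endothelial-like cells differed between the sets. A cluster left unnamed under the naming rule, with 11 of 11 endothelial gate markers enriched, held 770, 287, 1 and 4 cells of sets 1 to 4, and the cluster named endothelial held 48, 24, 576 and 897. Only the cluster named endothelial stood for endothelial cells in the alternatives that used Leiden clusters. The comparisons of other types in these alternatives therefore had few endothelial cells of sets 1 and 2 among the other cells. The part of this in the calls was not tested. Inside the cluster named endothelial, the 38 gated cells of set 1 had 691 CPM of Cdkn1a and 447 CPM of Bcl2l1, the cells of set 3 had 158 and 178 CPM, and those of set 4 had 173 and 183 CPM. Oligodendrocyte-like cells lay mainly in 2 clusters. In the oligodendrocyte-like cells of the cluster of 3435 cells, Cdkn1a was at 149.5, 154, 81.5 and 43.2 CPM in sets 1 to 4. The last 2 values came from 35 and 26 cells. In those of the cluster of 4188 cells Cdkn1a was at 131, 201, 38.4 and 45.6 CPM, the first 2 values from 49 and 148 cells. A cluster named microglia had a median of 1316 UMIs over all its cells. Its microglia-like cells had 17.3, 13.2, 7.03 and 15.1 CPM of Pmaip1, from 17, 9, 2 and 5 UMIs.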
